A study of Mus musculus with 23 samples.

Results

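The immediate early genes described here were the 10 genes *Fos*, *Fosb*, *Jun*, *Junb*, *Egr1*, *Atf3*, *Ier2*, *Dusp1*, *Zfp36* and *Nr4a1*. They were found by symbol, and all 10 were among the 18512 gene symbols of the count files. RNA-seq had been performed on the head of the pancreas of 23 male and female C57BL/6 mice, bought from Charles River at 6 to 8 weeks of age and weighing 20 to 25 g. Pancreatitis had been caused with caerulein, a peptide that overstimulates the acinar cells, given into the peritoneum at 50 µg/kg in 8 hourly injections on each of 2 days. Non-injured mice made up the baseline group (4 females, 4 males), and injured mice were taken at day 7 (4 females, 4 males) and at day 14 (3 females, 4 males). The day count starts 24 hours after the final injection, and no source used here says whether baseline mice received vehicle. The comparisons of both days share the same 8 baseline mice.

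Immediate early genes are transcribed within minutes of a stimulus, from transcription factors already present in the cell, and do not need new protein to be made. Their transcripts are short-lived, so that their level rises and falls again quickly. They respond to growth factors, stress and calcium, and are also known to respond to the handling of a tissue between resection and lysis. *Fos*, *Fosb*, *Jun* and *Junb* encode subunits of the AP-1 transcription factor, *Atf3* encodes a stress-induced partner of the same bZIP class, and *Egr1* and *Nr4a1* encode a zinc finger factor and an orphan nuclear receptor. Of the remaining members, *Dusp1* encodes a phosphatase that inactivates MAP kinases, *Zfp36* encodes tristetraprolin, which binds AU-rich elements and speeds the decay of mRNA, and *Ier2* encodes a nuclear protein.

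The members are compact genes, which can be seen in the GENCODE annotation of GRCm38. Their median span was 4698.5 bases, against 25554.5 bases for the 11394 protein-coding genes with enough counts to be tested, and their longest coding transcripts had a median of 3 exons against 9. *Jun* (chromosome 4:95049034-95052222, minus strand), *Junb* (8:84974484-84978718, minus strand) and *Ier2* (8:84661331-84662852, minus strand) had 1 exon each in that transcript. *Fos* lies at 12:85473890-85477273 on the plus strand, *Fosb* at 7:19302696-19310051 on the minus strand, *Zfp36* at 7:28376784-28380253 on the minus strand and *Nr4a1* at 15:101254269-101274795 on the plus strand. *Atf3* (1:191170296-191218039, minus strand) and *Dusp1* (17:26505590-26562128, minus strand) have the longest annotated spans of the 10, at 47744 and 56539 bases. Exons of *Junb* overlap those of *Prdx2* by 173 bases on the opposite strand, and those of *Dusp1* overlap *Ergic1* by 11 bases. The libraries were stranded, but the strand setting used in counting was not given in the sources used here, so reads in those stretches could not be assigned with certainty.

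Promoter sequences were available from RefSeq (GRCm38.p6, 250 bases before to 50 after the start site) for 8 of the 10 members, with *Egr1* and *Ier2* not matched. The core of the cAMP response element, TGACG on either strand, was found in 6 of these 8 promoters. TGACG was recorded in 21% of 27025 promoters of the same length, and whether that share counts both strands is not known here. *Fos*, *Fosb*, *Junb* and *Dusp1* held it as TGACG, and *Atf3* and *Nr4a1* only as CGTCA. The promoters of 4 members are printed because they carry the elements for which this class of gene is known or belong to the 2 genes called at day 7. Capitals mark TGACG or its reverse complement CGTCA, the full element TGACGTCA, and TATAAA.
Fos (chr12:85473640-85473939, plus strand): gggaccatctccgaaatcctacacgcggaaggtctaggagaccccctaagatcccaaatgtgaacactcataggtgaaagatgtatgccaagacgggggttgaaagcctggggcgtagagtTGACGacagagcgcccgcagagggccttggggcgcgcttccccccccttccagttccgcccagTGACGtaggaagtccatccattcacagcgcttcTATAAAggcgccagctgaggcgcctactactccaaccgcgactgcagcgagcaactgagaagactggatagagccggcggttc
Junb (chr8:84978699-84978998, minus strand): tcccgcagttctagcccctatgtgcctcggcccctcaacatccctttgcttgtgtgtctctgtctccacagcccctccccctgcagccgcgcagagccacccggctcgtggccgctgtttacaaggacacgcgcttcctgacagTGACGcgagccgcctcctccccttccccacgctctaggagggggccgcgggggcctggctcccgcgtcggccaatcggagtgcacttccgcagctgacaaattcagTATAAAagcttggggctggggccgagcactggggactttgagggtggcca
Atf3 (chr1:191183284-191183583, minus strand): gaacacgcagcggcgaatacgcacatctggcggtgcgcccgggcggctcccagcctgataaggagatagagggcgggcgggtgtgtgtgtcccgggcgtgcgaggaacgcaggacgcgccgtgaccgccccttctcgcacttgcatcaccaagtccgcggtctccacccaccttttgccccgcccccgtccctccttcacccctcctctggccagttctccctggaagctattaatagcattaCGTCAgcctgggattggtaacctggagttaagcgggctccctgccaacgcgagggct
Dusp1 (chr17:26508423-26508722, minus strand): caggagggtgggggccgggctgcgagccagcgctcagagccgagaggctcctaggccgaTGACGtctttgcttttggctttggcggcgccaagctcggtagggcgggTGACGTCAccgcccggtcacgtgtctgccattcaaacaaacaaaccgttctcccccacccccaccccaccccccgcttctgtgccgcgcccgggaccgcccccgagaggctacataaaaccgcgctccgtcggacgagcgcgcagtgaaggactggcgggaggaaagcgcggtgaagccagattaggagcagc

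In the *Fos* promoter the core elements began at -129 and -66 and the TATA box at -33 from the start site. The full element was found in *Dusp1*, at -143, and in 1.88% of all promoters. It contains the core on both strands, so it also counts toward the core. *Fosb* and *Nr4a1* carried the core at 1 and 4 positions, respectively, and *Jun* and *Zfp36* did not hold it in this window. Within this window the CArG box, the sequence bound by serum response factor, was found in 1 of 8, *Zfp36* at -58, and in 1.57% of all promoters. Sites further from the start site, and those of *Egr1* and *Ier2*, were not searched. The AP-1 site, TGACTCA or TGAGTCA, was found in 0 of the 8 promoters and in 5.17% of all, and TATAAA was found in 2 of 8 and in 14.2%.

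The 3′ untranslated regions of the members carried the AU-rich pentamer ATTTA in 9 of 10 cases (every member but *Ier2*), against 70.8% of 11389 tested genes with an annotated 3′ untranslated region. The median density was 3.55 pentamers per kb against 1.34. The longer nonamer TTATTTATT, to which tristetraprolin is known to bind, occurred in 3 of 10 members and in 8.22% of the tested genes. The 4 sites are printed with 10 bases on either side and with the nonamer in capitals, since *Zfp36* itself holds a site of the kind its product binds.
Fos, base 658 of 818: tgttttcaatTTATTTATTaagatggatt
Dusp1, base 106 of 693: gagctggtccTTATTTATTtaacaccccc
Dusp1, base 395 of 693: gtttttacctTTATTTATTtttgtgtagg
Zfp36, base 592 of 777: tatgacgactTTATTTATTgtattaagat

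Most members were weakly expressed in all groups. Total counts per mouse ranged from 7059890 to 9567446, so that 3 counts of a gene corresponded to 0.225 to 0.522 CPM (counts per 1000000 of a library scaled with TMM factors, which ranged from 0.769 to 1.40). Acinar markers were strongly expressed as a sum in every mouse: the summed level of 14 of them was 418695 to 619088 CPM at baseline, 247628 to 374169 CPM at day 7 and 383129 to 460790 CPM at day 14, in the pancreas the labels name. Not every marker was high, since *Amy2a5* had a mean of 6.65 CPM and *Ptf1a* one of 42.5 CPM at baseline. The summed level of these 14 markers was thus lower in every day 7 mouse than in any baseline mouse, and 7 of them were called lower. These sums are not shares of a library, since the TMM factor was higher in every day 7 mouse than in any baseline mouse. Because the tissue was sequenced whole, fewer cells of a type and less RNA per cell cannot be told apart in any of the comparisons below.

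Per kb of exonic length, *Ier2* had the highest level of the members, with 6.33 CPM per kb over all mice, followed by *Jun* with 3.45 and *Junb* with 1.62. *Atf3* (0.725 CPM per kb), *Zfp36* (0.679) and *Dusp1* (0.663) were close to one another. *Nr4a1* (0.394), *Egr1* (0.318), *Fos* (0.216) and *Fosb* (0.0122) were the lowest. The median protein-coding gene tested had 2.18 CPM per kb, which only *Ier2* and *Jun* exceeded. *Ier2* was above *Jun* in 23 of 23 mice, and *Jun* above *Junb* and *Junb* above *Atf3* in 22 of 23 mice each. The order of *Atf3* and *Zfp36*, and that of *Zfp36* and *Dusp1*, held in 12 of 23 mice, so that these 3 neighbours did not differ beyond their spread. The ranges over mice of every pair of neighbours overlapped.

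**Figure D1:**
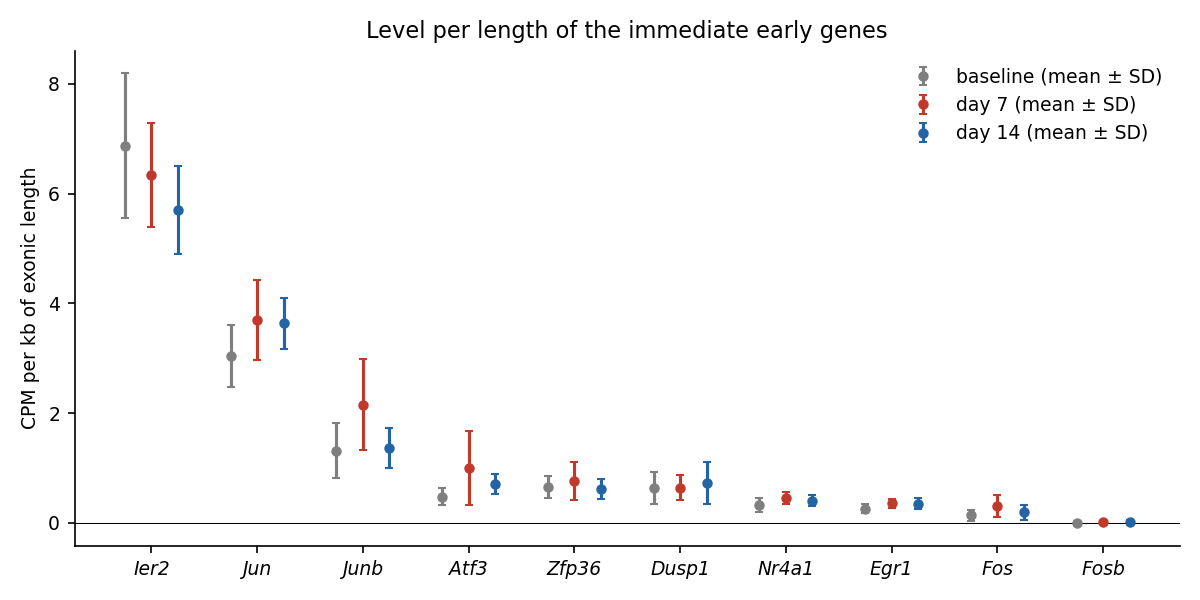
Level of each immediate early gene in CPM per kb of exonic length (y axis), ordered by the mean over all mice, with the mean ± SD of 8 baseline, 8 day 7 and 7 day 14 mice. *Ier2* and *Jun* stand above the other members at all 3 time points, and *Fosb* lies close to 0.

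Of the 10 members, 8 had enough counts to be tested among 12195 genes, and *Fos* and *Fosb* did not. At day 7, *Junb* and *Atf3* were higher than at baseline, and no tested member was called lower. A gene was called when its adjusted p was at most 0.05 and its fold change at least 1.5. The 2 called members of 8 stand beside 5.13% of all genes tested (626 genes), of which 3.82% were called higher and 1.31% lower. The median log2 fold change of the 8 members was 0.35, against 0.02 over all genes tested, with 7 members above 0 and 1 below where 53.7% of all genes were above 0. An unadjusted p under 0.05 was found for 3 of 8 members and for 32.2% of all genes. The tested members had 3 to 154 counts per mouse, and small differences were not detectable at this depth.

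**Figure D2:**
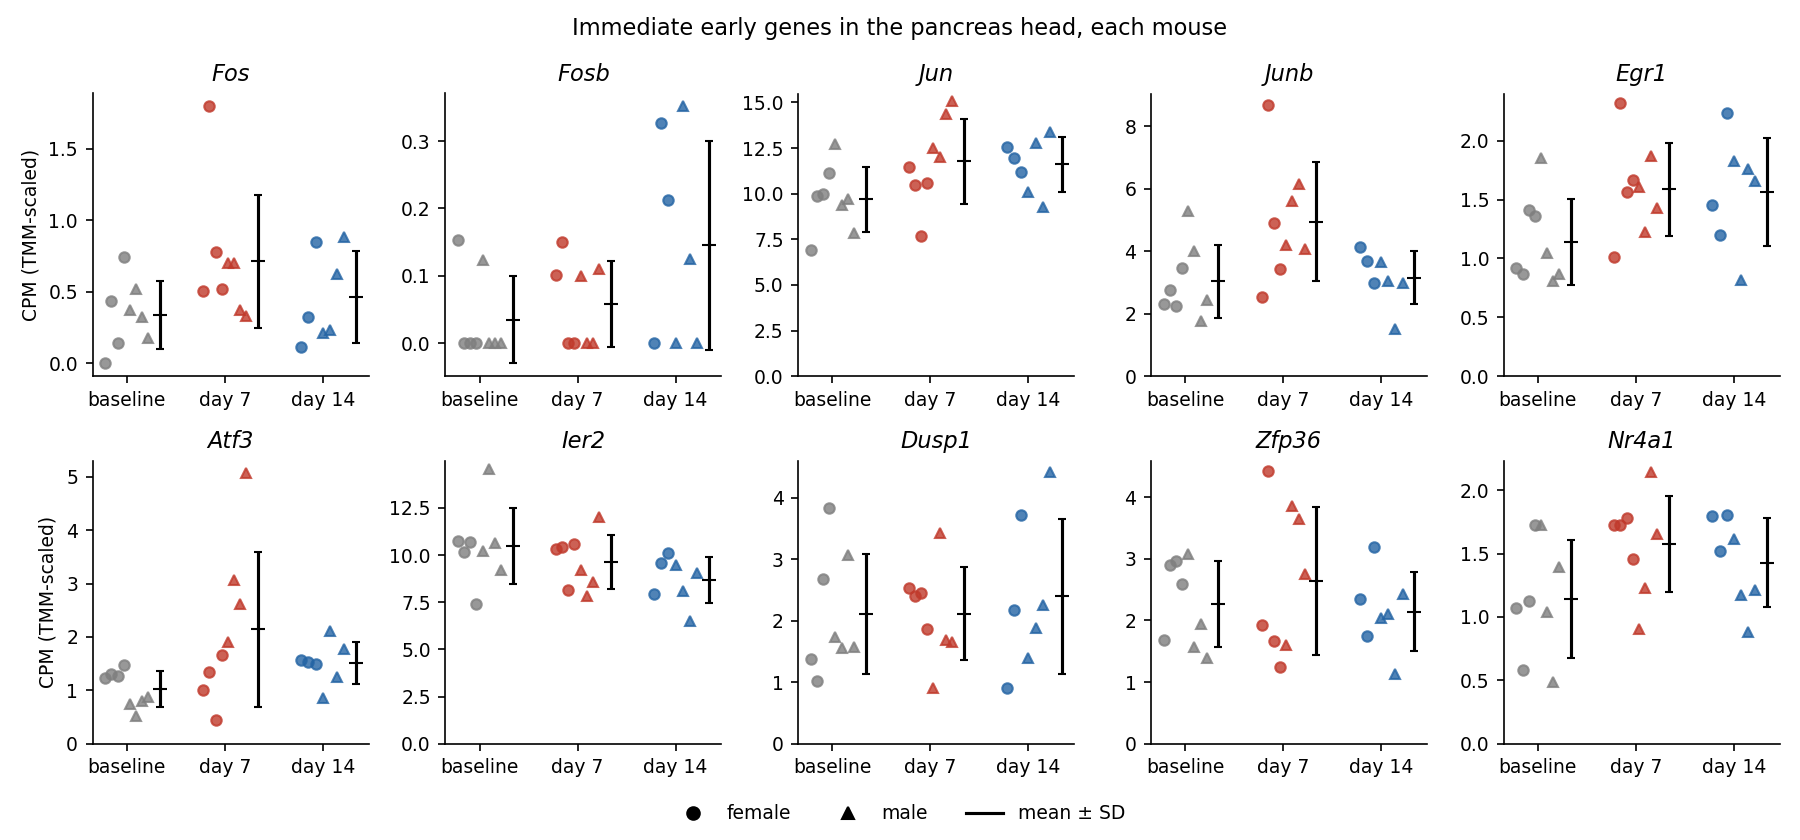
CPM of the 10 immediate early genes (y axis, a separate scale for each gene) in each mouse at baseline, day 7 and day 14, with females as circles, males as triangles and the mean ± SD beside them. *Junb* reached 8.69 CPM and *Atf3* 5.06 CPM in the highest day 7 mouse, and in none of the 10 panels do the groups separate fully.

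Among the AP-1 genes, *Junb* had a lowest, median and highest level of 1.78, 2.59 and 5.30 CPM at baseline, 2.53, 4.56 and 8.69 CPM at day 7, and 1.51, 3.05 and 4.15 CPM at day 14. The groups overlapped, and 3 of 8 day 7 mice were above every baseline mouse. The mean was 3.03 ± 1.16 CPM (SD, n = 8) at baseline and 4.95 ± 1.90 CPM (SD, n = 8) at day 7, a log2 fold change of 0.70 (SE 0.24, adjusted p = 0.0392 by the quasi-likelihood test of edgeR with Benjamini-Hochberg adjustment). Highest at day 7 was mouse 10, a female, followed by the males 15 (6.16 CPM) and 14 (5.61 CPM), and the highest baseline mouse was the male 5. The call of *Junb* was lost in 9 of 23 fits that left out 1 mouse (mouse 1, 2, 3, 7, 8, 10, 11, 14 or 15; adjusted p = 0.0505 to 0.109), and without mouse 10 the log2 fold change was 0.51. It was also lost in the fit of the baseline and day 7 mice alone (0.70, adjusted p = 0.0552) and within females (0.85, adjusted p = 0.155) and males (0.55, adjusted p = 0.349).

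Of the 4 mice with the highest *Junb*, 3 (mice 10, 15 and 5) were also high in lymphocyte markers. The summed level of 9 lymphocyte markers was 0.174 to 58.1 CPM at baseline (median 3.23), 0.771 to 108 CPM at day 7 (median 4.82) and 0.469 to 65.8 CPM at day 14 (median 2.87). It exceeded 50 CPM in mouse 10 (108 CPM), mouse 21 (65.8 CPM), mouse 15 (60.9 CPM) and mouse 5 (58.1 CPM), and was at most 18 CPM in every other mouse. In mouse 21, *Junb* was at 3.65 CPM, below the highest baseline mouse. Other markers were high in these mice too. Mice 10, 15, 5 and 21 ranked 1, 2, 5 and 7 of 23 by summed macrophage markers, and 1, 5, 4 and 2 by summed adipocyte markers. No marker of the lymphocyte list was at 0 throughout a group, 5 of the 9 were tested and 0 were called at either day in edgeR (0 with an unadjusted p under 0.05). Without these 4 mice, *Junb* had a log2 fold change of 0.60 at day 7 and an adjusted p of 0.0570 in edgeR, and *Atf3* one of 0.86 with an adjusted p of 0.109, so that 0 of 8 members were called while 555 genes in all were. The part of lymphocyte RNA in the level of *Junb* was not tested.

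*Atf3* had a lowest, median and highest level of 0.521, 1.05 and 1.48 CPM at baseline, 0.446, 1.78 and 5.06 CPM at day 7, and 0.860, 1.52 and 2.11 CPM at day 14. The groups overlapped: 5 of 8 day 7 mice were above every baseline mouse, and 1 was below every baseline mouse. The mean was 1.03 ± 0.337 CPM (SD, n = 8) at baseline and 2.14 ± 1.45 CPM (SD, n = 8) at day 7, a log2 fold change of 0.94 (SE 0.33, adjusted p = 0.0481 in edgeR). This rested on 3 to 46 counts per mouse. The call held only in the fits that left out mouse 2, 3, 4, 9, 10, 11 or 21, and was lost in the other 16 of 23 (adjusted p = 0.0504 to 0.113). It was also lost with DESeq2 (adjusted p = 0.0553). In each of the 23 fits the log2 fold change stayed above 0, from 0.70 to 1.11.

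The *Atf3* values lay apart by sex at day 7, with males higher, and at baseline, with females higher. The baseline values rested on 8 to 12 counts in females and 3 to 6 counts in males. In males they were 1.90, 2.61, 3.07 and 5.06 CPM at day 7 and 0.521, 0.740, 0.807 and 0.871 CPM at baseline, with every day 7 male above every baseline male. In females they were 0.446, 1.01, 1.35 and 1.66 CPM at day 7 and 1.23, 1.27, 1.30 and 1.48 CPM at baseline, which overlapped. In a fit with a coefficient for each sex and time point (12933 genes), the log2 fold change at day 7 was 2.08 in males (SE 0.37, adjusted p = 9.81e-04 in edgeR) and -0.24 in females (SE 0.36, adjusted p = 0.759). *Atf3* was the 1 member of 8 called in males, beside 4.12% of all genes, and 0 members were called in females, beside 1.89%.

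The difference between the sexes did not pass its own test. The interaction of sex with day 7 had a log2 value of 2.31 for *Atf3* (male minus female, SE 0.52), an unadjusted p of 1.65e-04 and an adjusted p of 0.144 in edgeR, which ranked 14 among the 12933 genes. It was singled out after its values had been seen. The adjusted p was 0.159 with DESeq2 and 0.0952 to 0.381 over the fits leaving out a single mouse, and 1 gene in all (0.00773%) passed for this interaction. An unadjusted p under 0.05 was found for 1 of 8 members and 5.45% of all genes. For the interaction with day 14, 0 of 8 members and 0% of all genes passed in edgeR, and 0 members had an unadjusted p under 0.05. Over all time points *Atf3* was not called between the sexes (log2 0.36 higher in males, adjusted p = 0.798), and 0 of 8 members were, beside 0.23% of all genes. Markers of some other cells lay the same way at day 7, while those of others did not. The 7 erythroid symbols stood for 4 distinct ones, since 3 pairs of globin symbols held the same counts in every mouse, and the summed level of these 4 was 47.7, 92.4, 117 and 582 CPM in the males and 21.1, 30.9, 38.7 and 45.1 CPM in the females. The summed level of 6 neutrophil markers was 2.42, 4.03, 4.61 and 4.67 CPM in the males and 0.557, 1.35, 1.42 and 2.32 CPM in the females. In the interaction with day 7, 4 of 4 distinct erythroid markers (3 with an unadjusted p under 0.05), 3 of 3 tested neutrophil markers (2) and 8 of 8 fibroblast markers (2) were above 0, and 0 of each list passed in edgeR. Of lymphocyte markers 0 of 9 were above 0, of adipocyte 1 of 6, of acinar 3 of 14 and of endothelial 3 of 8. Above 0 were also 4 of 8 islet, 5 of 9 duct, 5 of 7 smooth muscle and 7 of 10 macrophage markers. Of all genes 48.2% were above 0. Among the neutrophil markers, *S100a9* was at 7.14 (unadjusted p = 2.38e-04, adjusted p = 0.154 in edgeR) and *S100a8* at 6.63 (unadjusted p = 8.79e-04, adjusted p = 0.299), named after their values were seen. These values also draw on baseline, where the neutrophil sum was 20.3 CPM in mouse 4, a female. It was at most 2.26 CPM in the other baseline mice, so the values are not a rise in day 7 males alone. The part of these cells in the *Atf3* values was not tested.

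**Figure D3:**
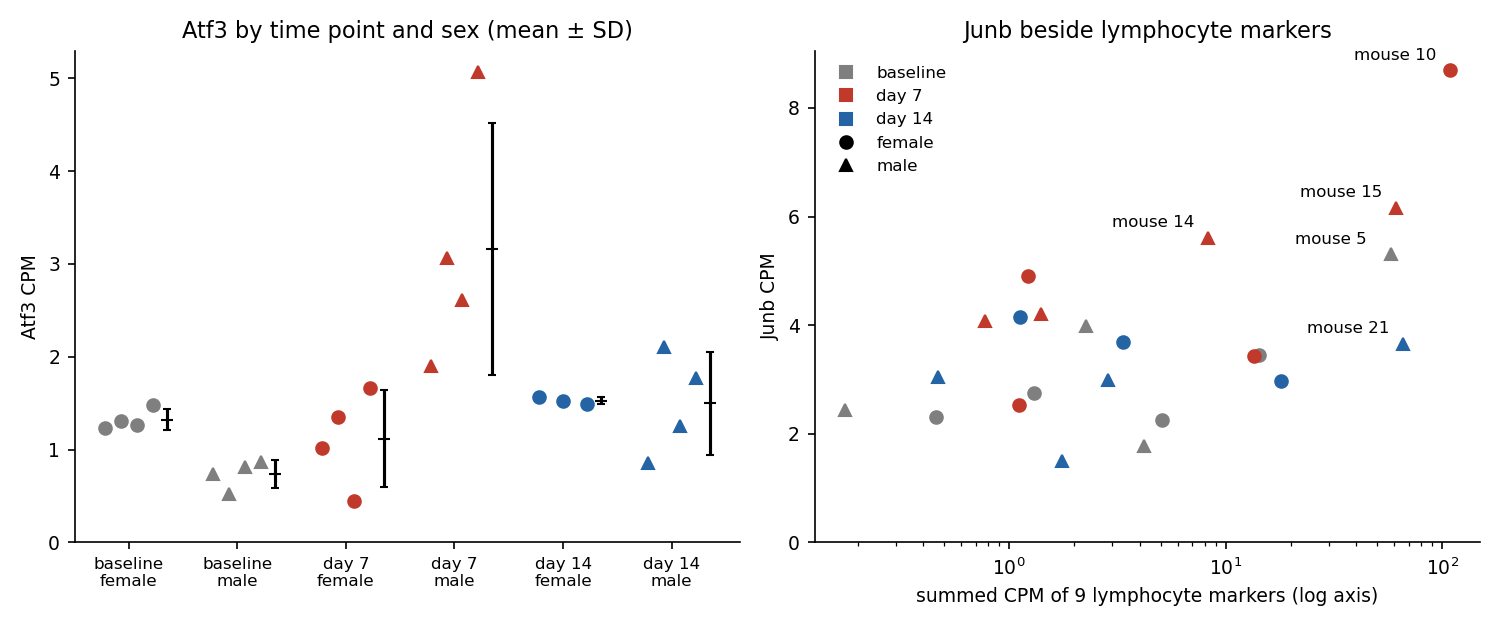
Left, *Atf3* in CPM in each mouse by time point and sex, with the mean ± SD, in which the 4 day 7 males (1.90 to 5.06 CPM) lie above all baseline males. Right, *Junb* in CPM (y axis) against the summed CPM of 9 lymphocyte markers (x axis, log scale) in each of 23 mice, coloured by time point, in which mice 5, 10, 15 and 21 have the most lymphocyte marker RNA.

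*Jun*, the main partner of the Fos proteins, had a lowest, median and highest level of 6.91, 9.77 and 12.7 CPM at baseline and 7.69, 11.7 and 15.1 CPM at day 7. The groups overlapped, with the males 15 and 16 above every baseline mouse. The log2 fold change was 0.26 (SE 0.12, unadjusted p = 0.0332, adjusted p = 0.119 in edgeR), and *Jun* was not called. *Fos*, the gene most often used as a mark of recent stimulation, was near the limit of detection. It had 0 to 6 counts per mouse at baseline (19 in all), 3 to 24 at day 7 (63 in all) and 1 to 8 at day 14 (29 in all). Its lowest, median and highest levels were 0, 0.346 and 0.741 CPM at baseline and 0.330, 0.611 and 1.80 CPM at day 7. Mouse 10 gave 24 of the 63 counts at day 7, and it and mouse 11 were above every baseline mouse. In a fit of all 18512 symbols without a filter, the log2 fold change of *Fos* at day 7 was 1.03 (SE 0.48, adjusted p = 0.185 in edgeR). *Fosb* had 0 to 3 counts in any mouse, with 2, 5 and 9 counts in all at baseline, day 7 and day 14, and 0 counts in 6, 4 and 3 mice.

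The zinc finger factor *Egr1* (18:34859823-34864984, plus strand) had a lowest, median and highest level of 0.807, 0.981 and 1.85 CPM at baseline, 1.01, 1.58 and 2.32 CPM at day 7, and 0.820, 1.66 and 2.23 CPM at day 14. Every day 7 mouse and 6 of 7 day 14 mice lay above the baseline median, but the groups overlapped. The log2 fold change was 0.46 (SE 0.23, adjusted p = 0.176 in edgeR) at day 7 and 0.44 (SE 0.24, adjusted p = 0.465) at day 14. *Nr4a1*, the nuclear receptor, ranged from 0.484 to 1.73 CPM at baseline, from 0.902 to 2.15 CPM at day 7 and from 0.879 to 1.81 CPM at day 14, with medians of 1.10, 1.69 and 1.52 CPM. Its log2 fold change was 0.44 (SE 0.24, adjusted p = 0.214) at day 7 and 0.31 (SE 0.25, adjusted p = 0.667) at day 14, and neither gene was called.

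*Dusp1* and *Zfp36*, which limit the response, and *Ier2* did not pass the test at day 7. *Dusp1* had medians of 1.65, 2.13 and 2.18 CPM at baseline, day 7 and day 14, within ranges of 1.01 to 3.83, 0.902 to 3.42 and 0.897 to 4.42 CPM. Its ranges overlapped nearly in full, and the log2 fold change at day 7 was 0.0013 (SE 0.31, adjusted p = 0.999 in edgeR). *Zfp36* ranged from 1.39 to 3.08 CPM at baseline (median 2.27) and from 1.25 to 4.42 CPM at day 7 (median 2.34), with mice 10, 14 and 15 above every baseline mouse and mouse 12 below them. Its log2 fold change at day 7 was 0.22 (SE 0.26, adjusted p = 0.577). *Ier2* was the 1 tested member with a value below 0: its median was 10.4 CPM at baseline and 9.78 CPM at day 7, and the log2 fold change was -0.11 (SE 0.12, adjusted p = 0.524).

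These values depended on how the libraries were scaled. With plain total counts in place of TMM factors, the median of all genes tested moved to 0.48 on the log2 scale, and 6 of 8 members passed the thresholds along with 3727 genes in all. Relative to that shift, *Atf3* stood at 0.91, *Junb* at 0.70, *Egr1* at 0.43, *Nr4a1* at 0.40, *Jun* at 0.24 and *Zfp36* at 0.22. *Dusp1* stood at -0.03 and *Ier2* at -0.13, although *Ier2* itself was then 0.35 higher than at baseline.

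**Figure D4:**
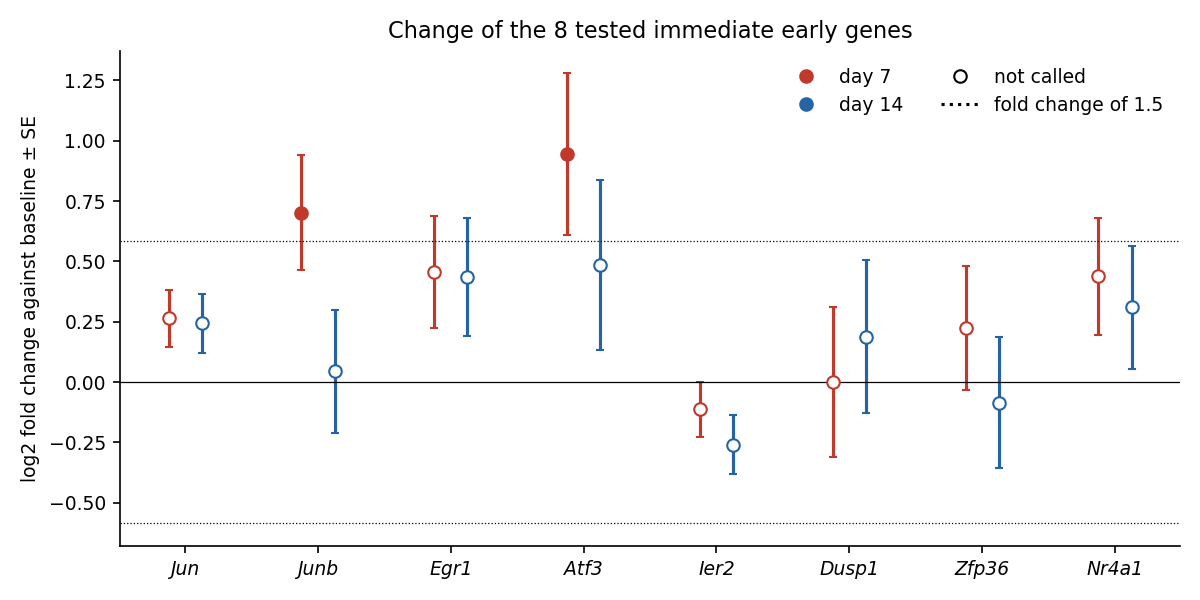
Log2 fold change against the shared baseline mice ± SE (y axis) of the 8 tested immediate early genes at day 7 and day 14, with called genes as filled points and dotted lines at a fold change of 1.5. *Junb* (0.70) and *Atf3* (0.94) at day 7 are the filled points, and the day 14 value of *Junb* lies at 0.04.

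At day 14, 0 of 8 members were called, beside 0.787% of all genes (96 genes). An unadjusted p under 0.05 in edgeR was found for 1 member, *Ier2*, and for 13.3% of all genes, and 0 members were called with DESeq2. The median log2 fold change was 0.22, with 6 members above 0 and 2 below where 51.6% of all genes were above 0. *Junb* was at 0.04 (SE 0.25, adjusted p = 0.976 in edgeR), with a mean of 3.14 ± 0.849 CPM (SD, n = 7) against 3.03 CPM at baseline. *Atf3* was at 0.48 (SE 0.35, adjusted p = 0.608), with 5 of 7 mice above every baseline mouse and a mean of 1.51 ± 0.391 CPM (SD, n = 7). *Jun* was at 0.24 (SE 0.12, adjusted p = 0.398), close to its day 7 value. *Ier2* had a median of 9.06 CPM against 10.4 CPM at baseline and was not called (log2 fold change -0.26, SE 0.12, unadjusted p = 0.0416, adjusted p = 0.347), and *Zfp36* was at -0.09 and *Dusp1* at 0.19. Between day 14 and day 7, 0 of 8 members were called, beside 0.377% of all genes. Here 1 of 8 members was above 0 (46.3% of all genes were), and 1 had an unadjusted p under 0.05 (14.1% of all genes did). *Junb* had the smallest p, with a log2 value of -0.66 (SE 0.24, unadjusted p = 0.0112, adjusted p = 0.185 in edgeR). In DESeq2 it had an unadjusted p of 0.0119 and no adjusted p after independent filtering.

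Within each time point, the SD of log2 CPM across mice was larger for most members than for the typical gene. Over the 8 members the median SD was 0.413 in baseline mice, 0.419 at day 7 and 0.375 at day 14, against 0.228, 0.214 and 0.20 over all genes tested. *Atf3* at day 7 had an SD of 0.910, above that of 97.1% of the genes, and *Dusp1* at day 14 one of 0.703, above 96.0%. Females and males are pooled in each SD and in the tests of spread below, and the day 7 *Atf3* values lay apart by sex, as given above. *Ier2* (0.210 at day 7) and *Jun* (0.188 at day 14) lay near the middle of all genes. Low counts alone raise the SD of log2 CPM, so the biological coefficient of variation of edgeR was set beside its trend at the same abundance. It was 0.385 for *Atf3* (trend 0.347), 0.385 for *Dusp1* (trend 0.333), 0.319 for *Zfp36* (0.328) and 0.307 for *Junb* (0.280). *Egr1* and *Nr4a1* lay below the trend, at 0.203 and 0.188 against 0.348 and 0.349. *Jun* and *Ier2* were at 0.138 (trend 0.156) and 0.132 (trend 0.167).

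**Figure D5:**
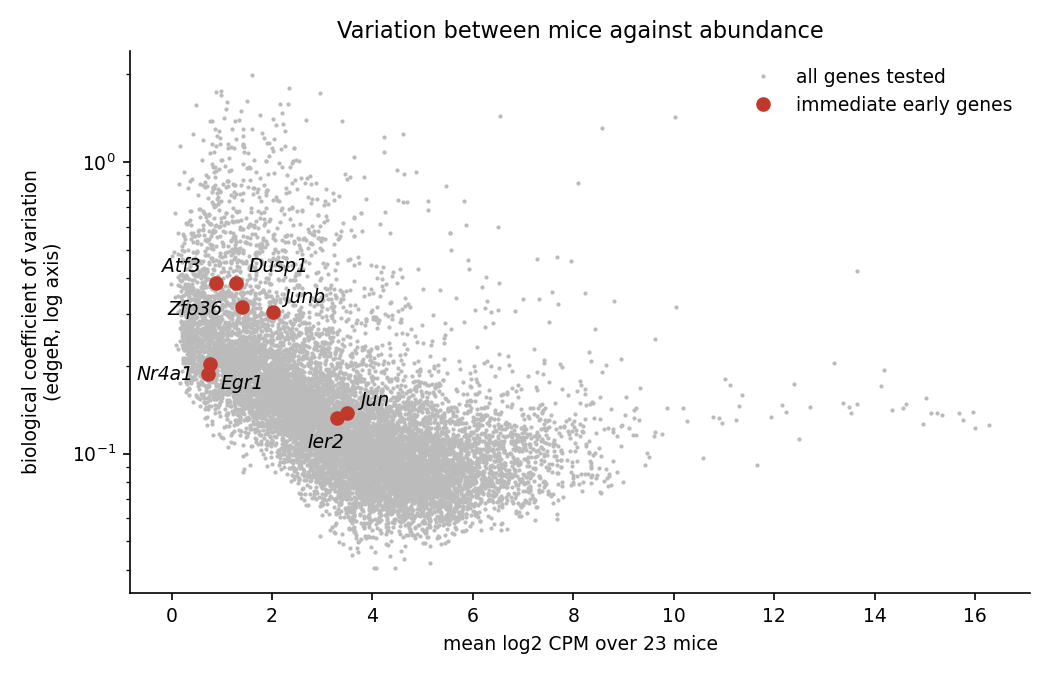
Biological coefficient of variation between mice (y axis, log scale) against mean log2 CPM (x axis) for the 12195 tested genes in grey and the 8 tested immediate early genes in red. *Atf3* and *Dusp1* (both 0.385) are the most variable members, and *Egr1* and *Nr4a1* lie lower at a like abundance.

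No change of spread between time points was found for any tested member. Every split of the mice was enumerated in exact permutation tests (two-sided), in which the smallest p among the members was 0.0724, for *Atf3* at day 14 (SD 0.347) against day 7 (SD 0.910), and its adjusted p over all genes was 1. Against baseline (SD 0.410), the p of *Atf3* at day 7 was 0.152 and that of *Zfp36* (SD 0.620 against 0.415) was 0.110, again by exact permutation. Of 8 members, 0 had an exact permutation p under 0.05 in any of the 3 comparisons, beside 4.48%, 3.44% and 3.11% of all genes, and 0 genes in all passed after adjustment. With 12870 or 6435 splits, the smallest possible p is too large for 1 gene alone to pass over 12195 genes. The adjusted result therefore cannot decide on single members.

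The level of several members was high in the same few mice. Among the 9 members ranked (*Fosb* left out), mouse 10 had the highest level of all 23 mice for 4, and mouse 15 was among the 3 highest for 6. Mouse 23, a day 14 male, was among the 3 lowest for 4. Summed over the 10 members, the level was 25.8 to 37.8 CPM at baseline, 29.4 to 44.1 CPM at day 7 and 25.4 to 37.8 CPM at day 14, and *Jun* and *Ier2* together made up most of it in every mouse but mouse 10.

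Between pairs of members, the correlation of log2 CPM across the 23 mice after removing time point and sex had a median of 0.134 over 28 pairs, from -0.148 to 0.593, with 21 pairs above 0. Across all pairs of tested genes the median was -0.0014. The highest pairs were *Jun* with *Atf3* (0.593), *Junb* with *Zfp36* (0.585), *Jun* with *Zfp36* (0.574) and *Junb* with *Nr4a1* (0.535). The lowest were *Dusp1* with *Ier2* (-0.148) and with *Junb* (-0.124). All points share the library and its scaling, and with total counts the median was 0.318 over the members and 0.173 over all pairs. The genes most like the mean of the 8 members, by Pearson r over 23 mice, were *Erap1* (0.809), *Irf9* (0.801), *Evi2a* (0.789), *Rhog* (0.787), *Hebp1* (0.781), *Ces2g* (0.777), *Dapp1* (0.773), *Adcy5* (0.771), *Flt3l* (0.770) and *Irf1* (0.770). Of these 10, 3 were also among the 10 highest by Spearman rho and 6 without mouse 10.

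Of 18 further transcription factors of this class, 12 were tested and 0 were called at day 7 in edgeR, with 9 above 0 and a median log2 fold change of 0.15. Of these 12, 4 had an unadjusted p under 0.05 (32.2% of all genes did) and 2 an adjusted p of at most 0.05 but a smaller fold change (18.6% of all genes met that adjusted p): *Klf6* at 0.32 (adjusted p = 0.0206) and *Klf10* at 0.48 (adjusted p = 0.0241), which were named after their values were seen. Of 34 immediate early genes with other products, 28 were tested and 2 were called at day 7, where 5.13% of all genes were. *Hbegf*, which encodes a ligand of the EGF receptor, was 0.73 higher (SE 0.23, adjusted p = 0.0250 in edgeR), and *Dusp8*, a phosphatase of MAP kinases like *Dusp1*, was 0.65 lower on the log2 scale (log2 fold change -0.65, SE 0.12, adjusted p = 5.46e-04). At day 14, 0 of these 40 tested genes were called in edgeR, and 1 of each list had an unadjusted p under 0.05.

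The kinases and factors that switch the members on were expressed in all groups and passed no test with its fold threshold. All 25 listed, among them the MAP kinases, their kinases, CREB, serum response factor and the ternary complex factors, were tested, and 0 were called at either day in edgeR, with 10 and 3 at an unadjusted p under 0.05 (32.2% and 13.3% of all genes). By adjusted p alone, which 5 of 25 met at day 7 beside 18.6% of all genes, *Creb1* was higher at day 7 (0.28, adjusted p = 0.00954), and *Braf* (-0.29, adjusted p = 0.00262), *Map2k2* (-0.25, adjusted p = 0.00501), *Mapk14* (-0.23, adjusted p = 0.00368) and *Mapk9* (-0.18, adjusted p = 0.0455) were lower, all named after their values were seen. The 11 listed transcripts that tristetraprolin is known to destabilise, cytokines such as *Tnf* and *Il6*, all had too few counts to be tested, with 20 counts of *Tnf* in 1 mouse as the highest value.

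Heat shock genes, another class that responds to stress and handling, had 9 tested members with 0 called at either day in edgeR, and 4 and 1 with an unadjusted p under 0.05 (32.2% and 13.3% of all genes). An adjusted p of at most 0.05 at day 7 was found for *Hspe1* (0.43, adjusted p = 0.00115) and *Hsp90aa1* (0.32, adjusted p = 0.00873), named after their values were seen, beside 18.6% of all genes. At day 7, 8 of the 9 were above 0, with a median log2 fold change of 0.19. The summed level of 11 heat shock genes was 277 to 436 CPM at baseline and 284 to 490 CPM at day 7.

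Markers of several other cell types that could carry these transcripts also differed at day 7, where 3.82% of all genes were called higher and 1.31% lower. Of 10 macrophage markers 7 were called higher (median log2 fold change 0.90; summed level 58.0 to 236 CPM at baseline and 141 to 352 CPM at day 7), and mouse 10 and mouse 15 had the highest sums. Of 8 fibroblast markers 7 were called higher (median 0.86; summed level 333 to 667 CPM at baseline and 638 to 1201 CPM at day 7). Of 8 islet markers 5 were called higher (median 1.0, summed level 128 to 553 CPM at baseline and 403 to 1155 CPM at day 7). Of 9 duct markers 2 were called higher and 5 were below 0 (summed level 316 to 424 CPM at baseline and 318 to 480 CPM at day 7). Adipocyte markers were not called, but mouse 10 had the highest sum of all mice (213 CPM). Of 8 endothelial markers 0 were called and 6 were below 0 (median -0.28, summed level 89.1 to 148 CPM at baseline and 73.7 to 130 CPM at day 7). Of 5 tested smooth muscle markers 0 were called and 5 were above 0 (median 0.70). The summed level of all 7 was 10.6 to 51.5 CPM at baseline and 12.4 to 119 CPM at day 7, highest in mouse 15. Of the 4 distinct erythroid markers 3 were called higher (median 1.70). Neutrophil markers, 6 of 8 in the files, had too few counts to be tested with the time points alone, and their values by sex stand beside those of *Atf3*. The part of these cells in the levels of *Junb*, *Atf3* and the other members was not tested.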

How the data were processed

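The deposited values were whole-number counts of read fragments per gene symbol in 23 mice. Per the labels and the study's methods, the authors purified RNA from pancreas heads, depleted ribosomal RNA, prepared stranded libraries, trimmed the reads (Trim Galore, cutadapt; FastQC), aligned them to mm10 with STAR 2.5.2a and counted uniquely mapped fragments with featureCounts; the annotation release was not given in the sources used here. Day 14 has 7 mice because the authors left out a female with a poor mapping rate. Multi-mapped reads were not counted, which lowers genes with near-identical copies.

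Counts as deposited were scaled with TMM factors and tested in edgeR 4.0.16 (limma 3.58.1, R 4.3.3; estimateDisp, robust glmQLFit, glmQLFTest) on the genes kept by filterByExpr, in a single fit over the 23 mice, adjusted for sex (12195 genes). A fit with a coefficient for each sex and time point gave the interaction (12933 genes). P-values are two-sided and adjusted over all genes tested. Each SE was derived from the test, as the size of the log2 fold change over the root of F. Log2 CPM has a prior count of 2. Spread was compared as the mean absolute deviation from the group median by exact permutation. The floor of 3 counts covers counting error only. The members, gene lists and tests were chosen with earlier results of these data known. All members were named, as were called genes of the lists other than marker lists (at most 8 per list) and the 10 genes most like the members. Other names were added after their values were seen, and each marker list is given by its counts, its sums or both. Symbols with the same counts in every mouse (23 of those tested, 0 members) were tested as deposited and counted once in marker sums. Each mouse is a replicate. Tests were checked on simulated data. Alternatives were DESeq2 1.42.0, its size factors, total count scaling, other filters, no fold threshold, no covariate, only the mice compared, and each mouse left out; fits within each sex, without mouse 10 and without the 4 mice of highest lymphocyte markers were added after seeing the data. Other steps ran in Python 3.11.15 (matplotlib 3.10.9, scipy 1.17.1, numpy 2.4.6, pandas 2.3.3).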

Additional observations from a re-analysis of the deposited data

Results flagged for a closer look

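Among 27 sets of 1 member and 1 time point compared with Dixon's 95% critical values, 2 held a mouse far from the others, and chance alone flags about 5% of such sets. *Fos* at day 7 was highest in mouse 10, at 1.80 CPM (24 counts) with the next mouse at 0.780 CPM, a gap that took up 0.542 of the range of the group. *Junb* at day 14 was lowest in mouse 23, at 1.51 CPM (12 counts) with the next mouse at 2.98 CPM, a gap of 0.664 of the range.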

How the results depend on the processing

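Depth limited what could be seen: *Fos* and *Fosb* were not tested, and *Atf3* had too few counts to enter the fit with at least 10 counts in every mouse or the fit of the baseline and day 7 mice alone. The number of members called at day 7 was 6 with total count scaling; 1 with no filter, with at least 10 counts in every mouse, with DESeq2 and in males; and 0 with only the mice compared, in females and without the 4 mice of highest lymphocyte markers. It was 0 to 2 when each mouse was left out (0 without mouse 1, 7, 8, 14 or 15). At day 14 it was 0 in each alternative run, and between day 14 and day 7 it was 1 (*Junb*, -0.92) with total count scaling.

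Over all genes, calls without the fold threshold numbered 2264 at day 7, 192 at day 14, 157 between the days and 70 between the sexes. With the threshold kept, total count scaling gave 3727, 449 and 477 for the first 3 of these. With at least 10 counts in every mouse, calls numbered 348 at day 7, 30 between the days and 16 between the sexes; with no covariate, 17 between the sexes; and in females, 244 at day 7. Between the days the count ran from 22 to 57 with each mouse left out (22 without mouse 22, 23 without mouse 15, 29 without mouse 24). The interaction with day 7 passed for 0 genes with no filter, 19 with DESeq2 and 0 to 7 with each mouse left out (7 without mouse 15; 2 without mouse 8 or 13; 0 without mouse 1 to 7, 9, 11, 14, 18 or 22 to 24). Of the 10 most like genes, 3 were shared under Spearman, 6 under total count scaling and 6 without mouse 10, and the median correlation between members was 0.318 under total count scaling.

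Signs turned for members that were not called in the fit of all mice, and for *Atf3*, at -0.24 in females at day 7. *Dusp1* at day 7 was at -0.0030 with the size factors of DESeq2, -0.0049 with DESeq2, -0.041 in males and -0.041 without the 4 mice of highest lymphocyte markers, and ran from -0.17 to 0.19 with each mouse left out. *Ier2* at day 7 was at 0.35 with total count scaling and 0.017 in females, *Zfp36* at -0.12 in females. At day 14, *Zfp36* was at 0.12 with total count scaling, and with each mouse left out *Zfp36* ran from -0.21 to 0.014, *Junb* from -0.040 to 0.23 and *Dusp1* from -0.045 to 0.37. Between the days, *Dusp1* was at -0.062 with total count scaling, *Jun* at 0.047 and *Egr1* at 0.11 without the 4 mice, and the ranges with each mouse left out were -0.047 to 0.37 for *Dusp1*, -0.075 to 0.036 for *Jun* and -0.13 to 0.087 for *Egr1*. The cause was not tested. No paired analysis was possible because each mouse has a number of its own and the groups share none.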
